A study of Mus musculus with 18 samples.

Results

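Macrophages lacking BAFF were set against macrophages lacking APRIL, both after lipopolysaccharide (LPS), the bacterial cell wall component that Toll-like receptor 4 senses. The comparison holds 8 of the 18 samples of the series, 4 of BAFF KO and 4 of APRIL KO, taken by the names of their columns in the deposited RPKM table (reads scaled to gene length and sequencing depth). Each library number in the labels covers 2 samples with neighbouring index numbers, so the 8 samples are 4 libraries, 17 and 18 of BAFF KO and 20 and 21 of APRIL KO. The value of a library is the mean of its 2 samples.

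All cells were macrophages grown from mouse bone marrow of strain C57BL/6J, and all labels also carry preterm birth at day 16 of gestation. The cells of these groups had 10 ng/ml LPS for 4 h. For reference the series holds wild-type (WT) cells with LPS (libraries 14 and 15) and 1 unstimulated library of each genotype (13 for WT, 16 for BAFF KO and 19 for APRIL KO). The labels say neither how the alleles were made nor where the libraries of 1 group come from. If they come from 1 mouse or dish, the p-values rest on technical spread alone. The series contrasts the parts of BAFF and APRIL in inflammation, and this comparison asks where the loss of one differs from the loss of the other.

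BAFF and APRIL are sister ligands of the tumour necrosis factor family. They share the receptors BCMA and TACI on B-lineage cells, BAFF alone binds BAFF-R, and APRIL also docks on heparan sulfate proteoglycans such as syndecans. Macrophages make both ligands. In macrophages LPS switches on a first wave of cytokine and chemokine genes through NF-kB, then a second wave through interferon and its receptor, and at the same time the inhibitors that end the response.

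The targeted gene was checked first. The gene for APRIL is Tnfsf13, on the minus strand of chromosome 11 in mm10, from 69682846 to 69685784 (ENSMUSG00000089669). All 4 LPS samples of APRIL KO had 0 reads of it. A count of 0 among their 11379603 reads allows up to 0.264 RPM, reads scaled to depth alone (3 reads over the group, counting error only). The BAFF KO samples had 56, 113, 67 and 159 reads, or 35.0 RPM, at least 132-fold higher. The transcripts Tnfsfm13 and Tnfsf13os overlap the gene, and how reads were divided among them is not given. The gene for BAFF was not analysed here, so the labels of BAFF KO were not checked by their target.

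Each of the 4 libraries held 5275350 to 6020780 reads in the listed genes. Libraries of a group differed beyond sampling noise, with a mean chi-square per gene of 5.88 between 17 and 18 and 7.44 between 20 and 21, against 20.5 to 22 between libraries of different knockouts. The macrophage marker Adgre1 was at 484 and 432 RPKM in BAFF KO and 516 and 520 in APRIL KO. Stromal markers, 11 of which were in the table, summed to 513 RPKM in library 21, against 23.4 in library 20, 17.3 in library 17 and 99.4 in library 18, and none of the 8 tested was called by limma. Skeletal muscle markers summed to 51.4 and 64.2 RPKM in BAFF KO and 33.8 and 83.4 in APRIL KO, with 0 of 18 called. Both lists also had 0 genes at an unadjusted p below 0.05 and 0 called by voom. The stromal sums differed so much within each group that the absence of calls there cannot be read as equal content. WT libraries 13, 14 and 15, used for reference below, had 291, 426 and 295 RPKM of skeletal muscle markers. Their stromal sums were 173, 292 and 103 RPKM. The part of such content in the comparisons with WT was not tested.

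Differences were tested with limma on log2(RPKM + 1), and adjusted p means the Benjamini-Hochberg adjusted p of that test over 9934 genes throughout. Log2 differences are BAFF KO minus APRIL KO and understate the change of low genes. Of the 9934 genes 550 passed an adjusted p of 0.05 (5.54%). Of these 246 were higher in BAFF KO (2.48%) and 304 lower (3.06%), and 42 and 88 of them by at least 2-fold. The median difference of all tested genes was 0.02. At an unadjusted p below 0.05 were 1929 of the 9934 genes, and limma voom on reads called 837. Counts over a list below are to be set beside these counts and shares of all genes. The count of 550 rested on having 2 libraries a group: 99 genes were called without library 17, 157 without 18, 148 without 20 and 145 without 21, and 77 stayed called whichever was left out (23 higher, 54 lower). In what follows a call is said to hold if it survived all 4 of these omissions, and an adjusted p of a call or of its loss printed as 0.05 is rounded.

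**Figure D1:**
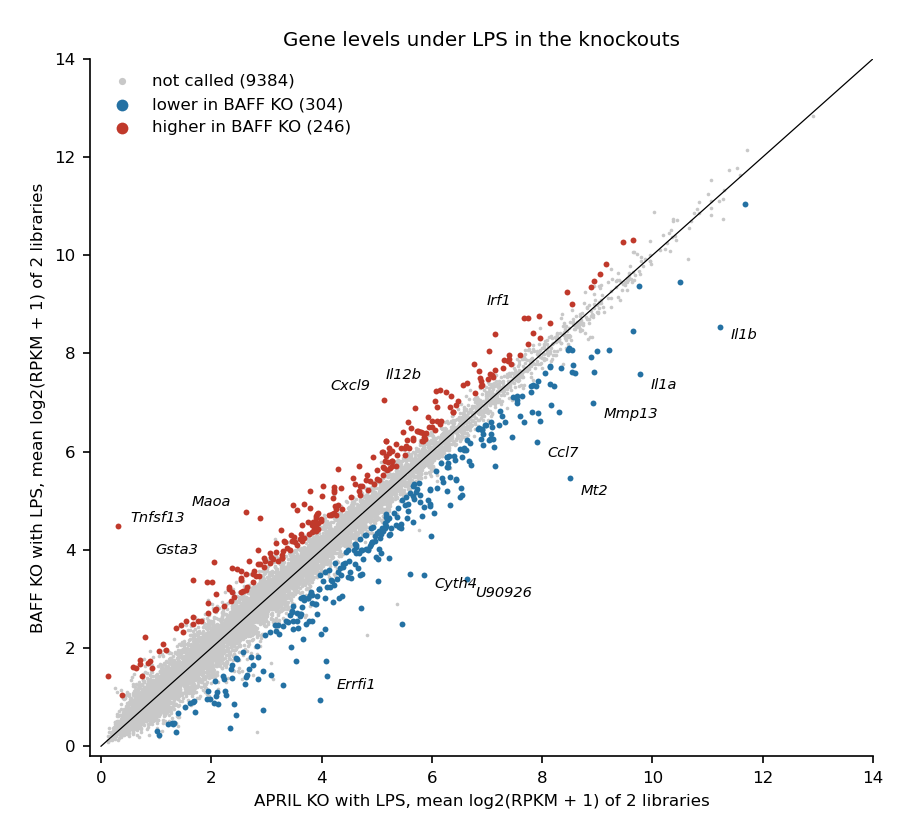
Each point is 1 of 9934 genes, placed by its mean log2(RPKM + 1) over the 2 APRIL KO libraries (x) and the 2 BAFF KO libraries (y) with LPS; colours mark the 246 genes higher and the 304 lower in BAFF KO, and the line marks equal levels. Il1b, Il1a, Mt2 and U90926 lie far below the line, and Tnfsf13 far above it.

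The largest differences lower in BAFF KO, on the log2 scale, were in U90926, Mt2, Il1b, Errfi1 and Cyth4, a mix of transcripts described below. The largest gains, after Tnfsf13 itself, were in Maoa, Cxcl9, Arhgap22, Retnlg and Gsta3. The WT libraries lay with APRIL KO at most of the called genes. They do not enter the difference between the knockouts, but they do enter the shared spread that the test uses. With only the 4 knockout LPS libraries in the fit, 437 of the 550 genes stayed called. WT with LPS was nearer to APRIL KO than to BAFF KO for 482 of the 550 called genes (87.6%), for 212 of the 246 higher and 270 of the 304 lower, against 57.3% of all tested genes. The median distance of WT was 0.17 on the log2 scale to APRIL KO and 0.69 to BAFF KO over called genes, and 0.16 and 0.19 over all genes. Set on a scale where APRIL KO is 0 and BAFF KO is 1, WT had a median of 0.1 over called genes, with quartiles of -0.11 and 0.31. Tested directly, 828 genes differed between BAFF KO and WT under LPS (8.34%) and 21 between APRIL KO and WT (0.211%). The comparisons share their libraries and so are not independent.

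**Figure D2:**
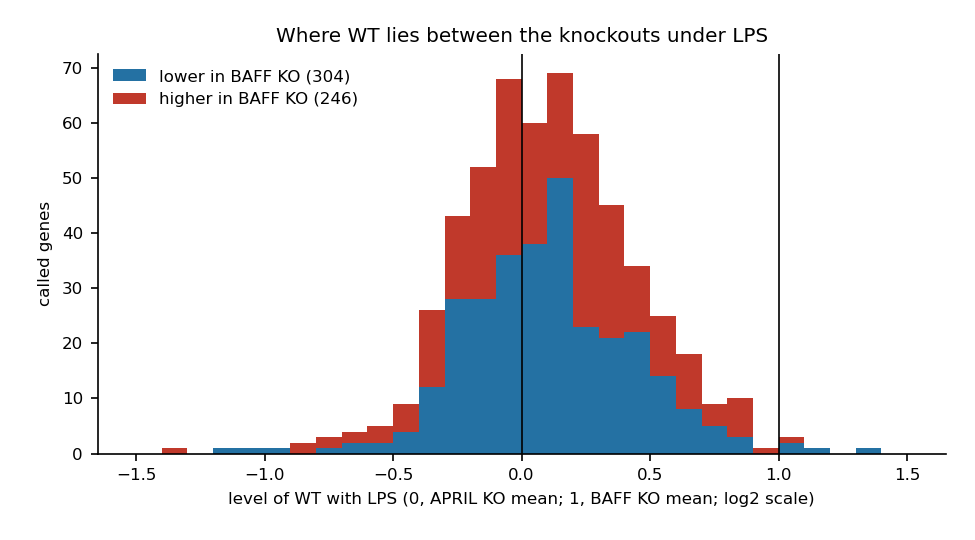
Histogram of the 550 called genes by where the WT mean with LPS lies between the knockout means (x, log2 scale; 0 is APRIL KO and 1 is BAFF KO; y, number of genes), for genes lower (304) and higher (246) in BAFF KO. Most genes gather around 0, the level of APRIL KO, with a median of 0.1.

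Genes that LPS induces made up much of the lower set. WT libraries were used for this as well: 130 of the 304 genes lower in BAFF KO (42.8%) rose at least 2-fold with LPS in WT on the log2(RPKM + 1) scale, against 48 of the 246 higher genes (19.5%) and 7.95% of all tested genes. Genes that fell at least 2-fold in WT were 19 of the lower set (6.25%), 51 of the higher set (20.7%) and 17.7% of all. Read the other way, of the 790 genes induced in WT 16.5% were lower and 6.08% higher in BAFF KO, and 612 were not called.

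The same genes were compared without LPS, where each knockout has 1 library and no test of that difference was made. Of the 304 lower genes 180 had both unstimulated BAFF KO samples below both of APRIL KO (59.2%), 39 had them above, and 85 overlapped. Of the 246 higher genes 130 were above (52.8%), 60 below and 56 overlapped. The same split over all tested genes was 41.8% below, 25.4% above and 32.8% overlapping.

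For 4 genes of the results below the 250 bases before the start site are shown, because each holds letters of the element best known for controlling it. Sequences are from RefSeq, build GRCm38.p6, plus strand, 5′ to 3′. Both metallothionein genes are shown with the core of the metal response element in capitals (TGCACNC or TGCGCNC, either strand), the site bound by the zinc-sensing factor MTF-1. The collagenase gene Mmp13 and the urokinase receptor gene Plaur are shown with the AP-1 element (TGANTCA, either strand), bound by FOS and JUN proteins. A metal response core was found in 21.4% and an AP-1 element in 6.75% of 32851 promoter windows of this length.
Mt2, chr8:94172368-94172617: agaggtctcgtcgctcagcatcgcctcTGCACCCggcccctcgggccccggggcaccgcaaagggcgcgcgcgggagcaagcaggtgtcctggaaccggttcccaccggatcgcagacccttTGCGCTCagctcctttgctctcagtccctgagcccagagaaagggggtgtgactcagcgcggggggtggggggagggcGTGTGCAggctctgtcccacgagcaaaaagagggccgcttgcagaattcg
Mt1, chr8:94178839-94179088: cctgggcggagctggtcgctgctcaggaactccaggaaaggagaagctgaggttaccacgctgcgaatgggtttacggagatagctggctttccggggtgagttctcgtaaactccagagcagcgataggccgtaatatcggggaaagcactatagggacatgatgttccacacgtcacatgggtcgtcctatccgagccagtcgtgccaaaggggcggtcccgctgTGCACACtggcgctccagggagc
Mmp13, chr9:7272264-7272513: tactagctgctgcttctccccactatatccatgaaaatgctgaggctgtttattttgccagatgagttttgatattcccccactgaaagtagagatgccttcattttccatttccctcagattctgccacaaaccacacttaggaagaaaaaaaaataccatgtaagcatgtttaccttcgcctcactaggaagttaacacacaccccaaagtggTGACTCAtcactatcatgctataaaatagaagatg
Plaur, chr7:24462233-24462482: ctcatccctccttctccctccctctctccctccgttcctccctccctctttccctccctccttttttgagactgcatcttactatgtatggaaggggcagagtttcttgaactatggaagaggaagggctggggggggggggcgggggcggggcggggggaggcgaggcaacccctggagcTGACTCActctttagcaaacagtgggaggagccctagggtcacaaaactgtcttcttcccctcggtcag
Mt2 holds 3 matches of the metal response core, beginning 223, 128 and 50 bases before the start site, and Mt1 holds 1, beginning 23 bases before it. The matches of Mmp13 and Plaur begin 35 and 69 bases before their start sites. They are matches of letters, not measured binding sites. Each window was marked for its named element alone. The Mt2 window also holds a match of the AP-1 letters, left in lower case.

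Both interleukin-1 ligands were lower in BAFF KO. Il1b, the inducible alarm cytokine that needs cleavage by an inflammasome, was at 373 and 369 RPKM in BAFF KO and at 2269 and 2549 in APRIL KO (ENSMUSG00000027398, chromosome 2, 129364570 to 129371139, minus strand). WT had 2298 and 2492. The groups did not overlap, APRIL KO was 6.49-fold higher, and the difference was -2.69 ± 0.09 (log2, SE; limma adjusted p = 2.3e-05). Il1a, its sister ligand on the same strand 54598 bases away, was at 176 and 203 RPKM against 966 and 798 (-2.21, adjusted p = 0.00017). Il1rn, which encodes the receptor antagonist, was lower too, at 237 and 250 against 477 and 464 RPKM (-0.95, adjusted p = 0.0021), and all 3 calls held. The predicted gene Gm14023, named after its values were seen, lies over Il1a on the opposite strand and was also lower (-1.8, adjusted p = 0.0048, but 0.05 without library 18). Without knowing the strand its reads cannot be told from those of Il1a.

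Of the 10 genes tested in the interleukin-1 family and its antagonists 3 were lower and 1 higher, with a median of -0.09. The higher one was Il18bp, the decoy that binds interleukin-18, at 57.1 and 52.9 against 40.8 and 35.2 RPKM (0.52, adjusted p = 0.038). Its call was lost whichever of the 4 libraries was left out, with adjusted p up to 0.21. In the inflammasome and pyroptosis list 1 of 18 was called, near the 5.54% called over all genes. It was Nlrp3, the sensor that assembles the inflammasome, lower at 85.9 and 76.6 against 114 and 127 RPKM (-0.57, limma adjusted p = 0.02, up to 0.13 when any 1 library was left out).

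Interleukin-12 genes went the other way. Il12b, the p40 subunit shared by interleukins 12 and 23, was at 154 and 144 RPKM in BAFF KO and 72.0 and 61.4 in APRIL KO, 2.24-fold higher (1.15 ± 0.11, limma adjusted p = 0.002). WT had 51.9 and 51.6 RPKM, the lowest of the groups. Il12a, the p35 subunit, was at 31.0 and 28.5 against 11.9 and 11.8 RPKM (1.26, adjusted p = 0.024). These were 2 of 5 family subunits tested, with a median of 0.55. The call of Il12b held, while that of Il12a was lost without any 1 of the libraries (adjusted p up to 0.17).

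Among other cytokines and growth factors 7 of 21 were lower and none higher, with a median of -0.52. Il19, an interleukin-10 relative, was at 0.698 and 0.656 RPKM in BAFF KO against 6.58 and 6.83 (-2.2, limma adjusted p = 0.00089). In each BAFF KO library 1 sample was at 0.353 RPKM, the value listed for Il19 without reads. Il10, the main anti-inflammatory cytokine, was at 69.3 and 64.9 against 141 and 136 RPKM (-1.03, adjusted p = 0.0037). Both calls held. Hbegf and Pdgfa, ligands of the EGF and PDGF receptors, were at -1.44 and -1.3 (adjusted p = 0.01 and 0.008), and Csf3, the granulocyte growth factor, at -1.26 (adjusted p = 0.02). Pdgfb (-0.78) and Tnfsf9 (-0.8) were the others (adjusted p = 0.013 and 0.039). Hbegf lost its call without 17, 18 or 21 (up to 0.081), Pdgfa without 20 or 21 (up to 0.058) Csf3 and Tnfsf9 without any 1 library (up to 0.14 and 0.2) and Pdgfb without 17, 18 or 20 (up to 0.096). Some signature cytokines of the LPS response gave no call. Tnf was at 714.5 and 702 RPKM against 693 and 600.5 (0.13, adjusted p = 0.51), with overlapping samples, and Il6 at 357.5 and 270.1 against 470 and 445 (-0.56, adjusted p = 0.074).

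Chemokines of the CC class, which draw monocytes and lymphocytes, were lower in 7 of 11 genes and higher in none, with a median of -0.63. Ccl7 was at 73.6 and 70.7 RPKM in BAFF KO and 209.5 and 273 in APRIL KO (-1.72 ± 0.13, limma adjusted p = 0.00068). Its neighbour in function Ccl2, the main monocyte attractant, was at 123 and 123 against 246 and 328 RPKM (-1.2, adjusted p = 0.0035). These 2 calls held. Ccl4, one of the most abundant messages in these cells, was at 2261 and 1963 against 3419 and 3125 RPKM (-0.63, adjusted p = 0.015). Ccl17 and Ccl22, ligands of CCR4 on regulatory and type 2 T cells, were at -1.17 and -0.94 (adjusted p = 0.021 and 0.0082), and the relatives Ccl9 and Ccl6 at -0.94 and -0.34 (adjusted p = 0.0076 and 0.05). The calls of Ccl4, Ccl17 and Ccl6 were lost without any 1 library (up to 0.11, 0.13 and 0.21), that of Ccl22 without 17, 18 or 20 (up to 0.069) and that of Ccl9 without 20 (0.058).

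Chemokines that attract neutrophils were lower in 2 of 6 genes, with a median of -0.28. Cxcl2 was at 333 and 368 RPKM against 919 and 693 (-1.19, limma adjusted p = 0.0048), and Cxcl3 at 30 and 27.9 against 100.3 and 63.1 (-1.43, adjusted p = 0.0077). Cxcl2 lost its call without library 17 (0.059), and Cxcl3 without 17 or 18 (up to 0.068).

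The chemokines induced by interferon split. Cxcl9, which calls CXCR3-bearing T cells and depends on interferon gamma and IRF1, was at 131 and 133 RPKM in BAFF KO against 33.1 and 35.4 in APRIL KO. The difference was 1.91 ± 0.11 (3.85-fold, limma adjusted p = 0.00017), and its call held. WT was at 36.7 and 39.3 RPKM. Cxcl10, which binds the same receptor, was at 3260 and 3055 against 3065 and 3128 RPKM (0.03, adjusted p = 0.9), and its samples overlapped.

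Irf1, the transcription factor that drives many interferon gamma genes, stood out in its family. It was at 410 and 437 RPKM in BAFF KO and 198.5 and 208 in APRIL KO, with WT between them at 242 and 240. The difference was 1.06 ± 0.08 (2.08-fold, limma adjusted p = 0.00063), held, and was the only call among 8 interferon regulatory factors. Of 42 interferon-stimulated antiviral genes 0 were called by limma, with a median of -0.01 and a range of -0.51 to 0.39. At an unadjusted p below 0.05 were 8, against 1929 of all 9934 genes. Limma voom on reads called 5, against 837 of all genes. The smallest p belonged to Oasl1 (0.39, limma adjusted p = 0.067). The list is not complete: Ifi202b, Ifi208, Slfn4 and Trim30b, induced by LPS in WT and outside it, were called lower in BAFF KO. Calhm6, also induced by LPS in WT and outside the list, was called higher. These genes were picked after their values were seen. Genes outside the list were not counted in either direction, so they show no direction for such genes. Guanylate-binding proteins and immunity-related GTPases, host defence genes under interferon control, also had 0 of 14 called (median 0.1, range -0.14 to 0.36), with Gbp3 nearest (0.28, adjusted p = 0.077), 2 at an unadjusted p below 0.05 and 1 called by voom.

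Receptors for cytokines were lower in 4 of 21 genes (median -0.23). Ifnar1, a chain of the receptor for type I interferon, was at 21.7 and 23.6 RPKM against 51.8 and 47.3 (-1.1, limma adjusted p = 0.0013), and Il4ra, the shared chain for interleukins 4 and 13, at 8.29 and 10.6 against 30.9 and 32.1 (-1.65, adjusted p = 0.00089). Both calls held. Without LPS Ifnar1 was already at 16.1 against 35.3 RPKM. Il13ra1, the partner of Il4ra, was at -0.75 (adjusted p = 0.009) but lost its call without 17, 18 or 21 (up to 0.078), and Csf3r, the receptor of Csf3, at -0.53 (adjusted p = 0.02) without any 1 library (up to 0.14). Of 11 JAK kinases and STAT factors Stat5a (-0.75), Stat5b (-0.51) and Jak2 (-0.41) were lower (adjusted p 0.013 to 0.045). The calls of Stat5b and Jak2 were lost without any 1 library (up to 0.22 and 0.21) and that of Stat5a without 17, 18 or 20 (up to 0.11).

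Inhibitors that limit inflammatory signalling were lower in 10 of 22 genes and higher in none (median -0.53). Errfi1, a brake on the EGF receptor, was at 1.25 and 2.18 RPKM in BAFF KO against 17.7 and 14.5 (-2.67 ± 0.22, limma adjusted p = 0.001). Its call held, as did that of Tnip3, an inhibitor of NF-kB signalling (70.2 and 67.8 against 118 and 123 RPKM, -0.79, adjusted p = 0.0024). The others were the related Tnip1 (-0.77), the RNase Zc3h12a (-0.76), Sbno2 (-0.81), Irak3 (-0.58), which blocks Toll-like receptor signalling, Dusp4 (-1.64) and Dusp1 (-0.68), phosphatases of MAP kinases, Ier3 (-1.03), and Socs3 (-1.02), the inhibitor of STAT3 signalling (adjusted p 0.004 to 0.046). Socs3, Dusp1 and Irak3 lost their calls without any 1 library (up to 0.22, 0.16 and 0.21), Tnip1 without 17 (0.05), Zc3h12a and Sbno2 without 17, 20 or 21 (up to 0.1 and 0.083), Dusp4 without 17, 18 or 20 (up to 0.081) and Ier3 without 17, 20 or 21 (up to 0.061).

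The genes for NF-kB itself had small differences. Of 15 subunits and IkB proteins Nfkb2 (-0.38, limma adjusted p = 0.043) and Bcl3 (-0.57, 0.034) were lower, with a median of 0.05 over the list, and both calls were lost without any 1 library (up to 0.24 and 0.19). Of 20 genes for sensing LPS and other microbial products 1 was called, near the 5.54% called over all genes. It was Cd14, the co-receptor that hands LPS to Toll-like receptor 4, lower at 100.5 and 108 against 184 and 203 RPKM (-0.88, limma adjusted p = 0.012, up to 0.1 without any 1 library). Of 13 immediate early factors 3 were lower (median -0.41), the AP-1 family members Fos (-0.87), Fosl2 (-0.76) and Batf (-0.69) (adjusted p 0.015 to 0.042). Fosl2 and Batf lost their calls without any 1 library (up to 0.21 and 0.12) and Fos without 17, 20 or 21 (up to 0.19).

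**Figure D3:**
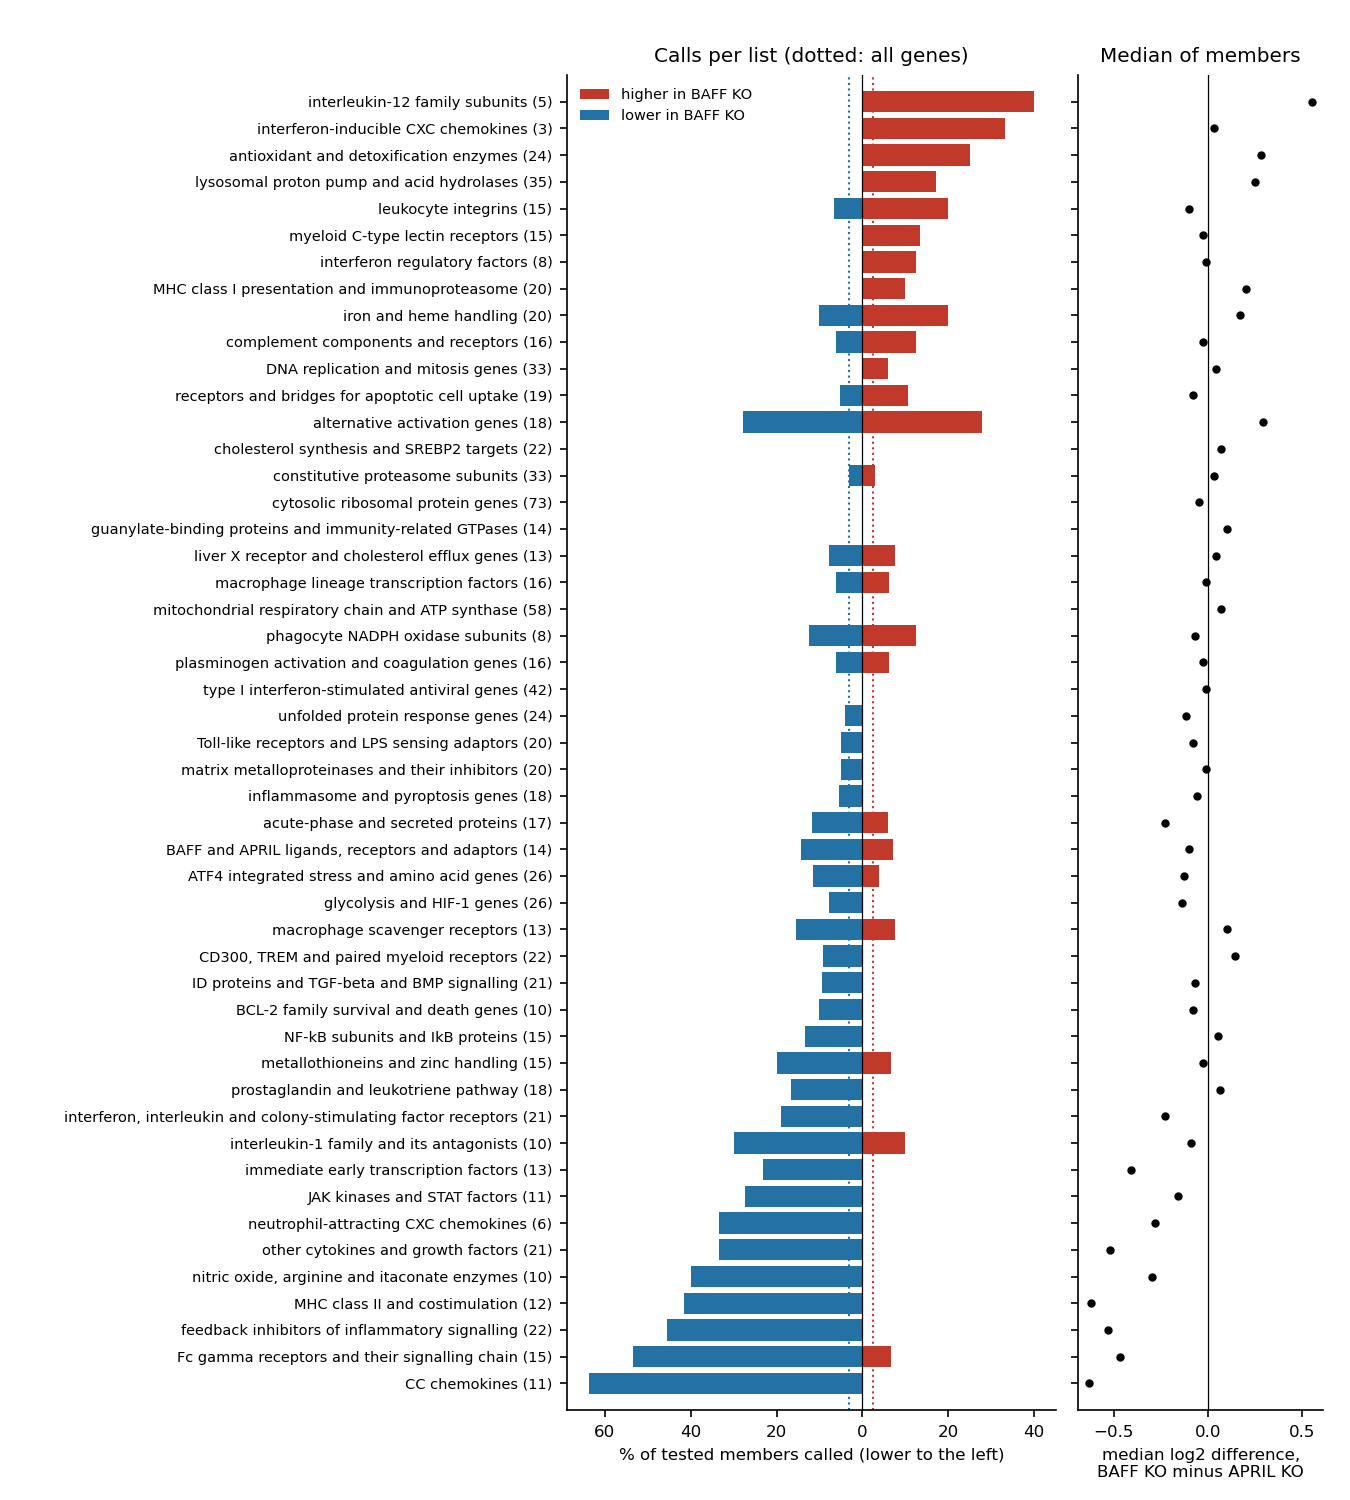
Left, the percentage of tested members of each of 49 gene lists (number tested in brackets) called higher (right of 0) or lower (left of 0) in BAFF KO, with dotted lines at the 2.48% and 3.06% of all genes; right, the median log2 difference of the list's tested members. CC chemokines, Fc gamma receptor genes and feedback inhibitors reach furthest to the left, and antioxidant enzymes and lysosomal genes lie to the right.

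Mmp13, a collagenase that LPS induces in macrophages, was at 124 and 128 RPKM in BAFF KO and 475 and 490 in APRIL KO, and WT was at 527 and 523. The difference was -1.93 ± 0.07 (limma adjusted p = 2.3e-05), and it was the only call among 20 matrix proteases and inhibitors (median -0.01). Plaur, which holds the plasminogen activator urokinase at the cell surface, was at 114.5 and 106 against 330.0 and 305 RPKM (-1.52 ± 0.08, adjusted p = 0.00017). Both calls held. Their promoters, each with an AP-1 element, are printed above. The only other call among 16 plasminogen and coagulation genes was Plat, tissue plasminogen activator, at 16.4 and 12.9 against 7.88 and 8.21 RPKM (0.78, adjusted p = 0.041, up to 0.22 without any 1 library).

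Metallothioneins, small proteins that bind zinc and copper, were much lower in BAFF KO. Mt2 was at 40.4 and 45.3 RPKM against 309.5 and 422 in APRIL KO and 495 and 433 in WT, a difference of -3.05 ± 0.15 (8.53-fold, limma adjusted p = 0.00011). Mt1, which lies 5514 bases further along chromosome 8, was at 34.8 and 33.0 against 89.0 and 95.6 RPKM (-1.42, adjusted p = 0.0007). Both calls held, and the 2 genes are so alike that reads may be shared between them. Unstimulated BAFF KO had 41.0 RPKM of Mt2 and 71.3 of Mt1, and unstimulated APRIL KO 30.1 and 49.0. Zinc transporters moved in opposite ways. Slc39a14, an importer, was at 0.427 and 0.697 against 3.73 and 5.30 RPKM (-1.81, adjusted p = 0.004, 0.053 without library 17), and Slc30a1, the exporter that MTF-1 also controls, at 2.08 and 2.36 against 0.785 and 0.841 (0.83, adjusted p = 0.017, up to 0.11 without any 1 library). Of 15 metallothionein and zinc genes 3 were thus lower and 1 higher (median -0.03).

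Iron and heme genes were higher in 4 and lower in 2 of 20 (median 0.17). Slc40a1, the iron exporter ferroportin, was at 5.30 and 5.01 RPKM in BAFF KO against 2.18 and 2.18 (0.95, limma adjusted p = 0.0083). Ncoa4, the receptor that delivers ferritin to lysosomes, was at 0.82, Hmox1, which opens the heme ring, at 0.48, and Blvrb, which acts after it, at 0.51 (adjusted p = 0.0097, 0.011 and 0.02). Hamp, which encodes hepcidin, the hormone that removes ferroportin, was lower at 2.99 and 4.22 against 12 and 11.3 RPKM (-1.47, adjusted p = 0.0092), as was Cp, the ferroxidase ceruloplasmin (-0.99, adjusted p = 0.0069). None of the 6 held. The adjusted p rose to 0.076 for Slc40a1, 0.09 for Hmox1 and 0.13 for Blvrb without any 1 library, to 0.078 for Ncoa4 and 0.069 for Cp without 17, 18 or 21, and to 0.079 for Hamp without 17, 20 or 21.

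Antioxidant and detoxification enzymes were higher in 6 of 24 and lower in none, with a median of 0.28. Gsta3, a glutathione transferase, was at 14.8 and 10.5 RPKM in BAFF KO against 2.67 and 3.63 (1.71 ± 0.19, limma adjusted p = 0.0037). Gstm1, of the same activity, was at 273 and 252 against 126 and 135 RPKM (1.0, adjusted p = 0.00089), and Cat, catalase, at 125 and 136 against 63.0 and 68.8 (0.97, adjusted p = 0.0013). These 3 held. Mgst1 was at 1.05 (adjusted p = 0.0045, 0.053 without library 17), and Gclm, the modifier subunit of glutathione synthesis, at 0.82 (adjusted p = 0.006, up to 0.054 without 17 or 18). Gstm1 may share reads with its close relatives. Without LPS the BAFF KO library was also higher, at 361 against 162 RPKM of Gstm1 and 31.5 against 12.3 of Gsta3.

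Lysosomal genes, the pump subunits and hydrolases that acidify and digest, were higher in 6 of 35 (median 0.25, with 32 of 35 above 0 where all genes have a median of 0.02). They were the pump subunits Atp6v0d2 (0.69), Atp6v1d (0.46), Atp6v1c1 (0.38) and Atp6v1h (0.35), the glycogen-degrading Gaa (0.55) and the galactosidase Gla (0.41), with limma adjusted p of 0.015 to 0.042. Atp6v1d was at 299 and 286 RPKM against 213 and 212.5. Each of the 6 calls was lost without any 1 library, with adjusted p up to 0.21.

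Enzymes around nitric oxide and arginine were lower in 4 of 10 (median -0.3). Odc1, which turns ornithine into polyamines, was at 43.4 and 40.6 RPKM in BAFF KO against 86.8 and 85.1 (-1.02 ± 0.08, limma adjusted p = 0.00083), and its call held. The arginine transporter Slc7a2 (-0.6), the arginine-recycling Ass1 (-0.55) and Acod1 (-0.38), which makes itaconate, were lower (adjusted p 0.026 to 0.041), and each lost its call without any 1 library (up to 0.17, 0.16 and 0.2). Nos2, the inducible nitric oxide synthase, was at 312 and 329 against 408.5 and 533 RPKM (-0.54, adjusted p = 0.051).

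The inducible prostaglandin route was lower at 3 successive steps, among 18 genes with a median of 0.06. Pla2g4a, the phospholipase that frees arachidonic acid, was at 10.6 and 10.3 RPKM against 22.8 and 28.7 (-1.22, limma adjusted p = 0.0038). Ptgs2, the inducible cyclooxygenase, was at 93.6 and 100.3 against 258 and 236 RPKM (-1.34 ± 0.11, adjusted p = 0.0011). WT lay between at 187 and 154. Ptges, which makes prostaglandin E2, was at 9 and 9.62 against 16.1 and 18.5 RPKM (-0.83, adjusted p = 0.033). The first 2 held, and Ptges lost its call without any 1 library (up to 0.19).

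**Figure D4:**
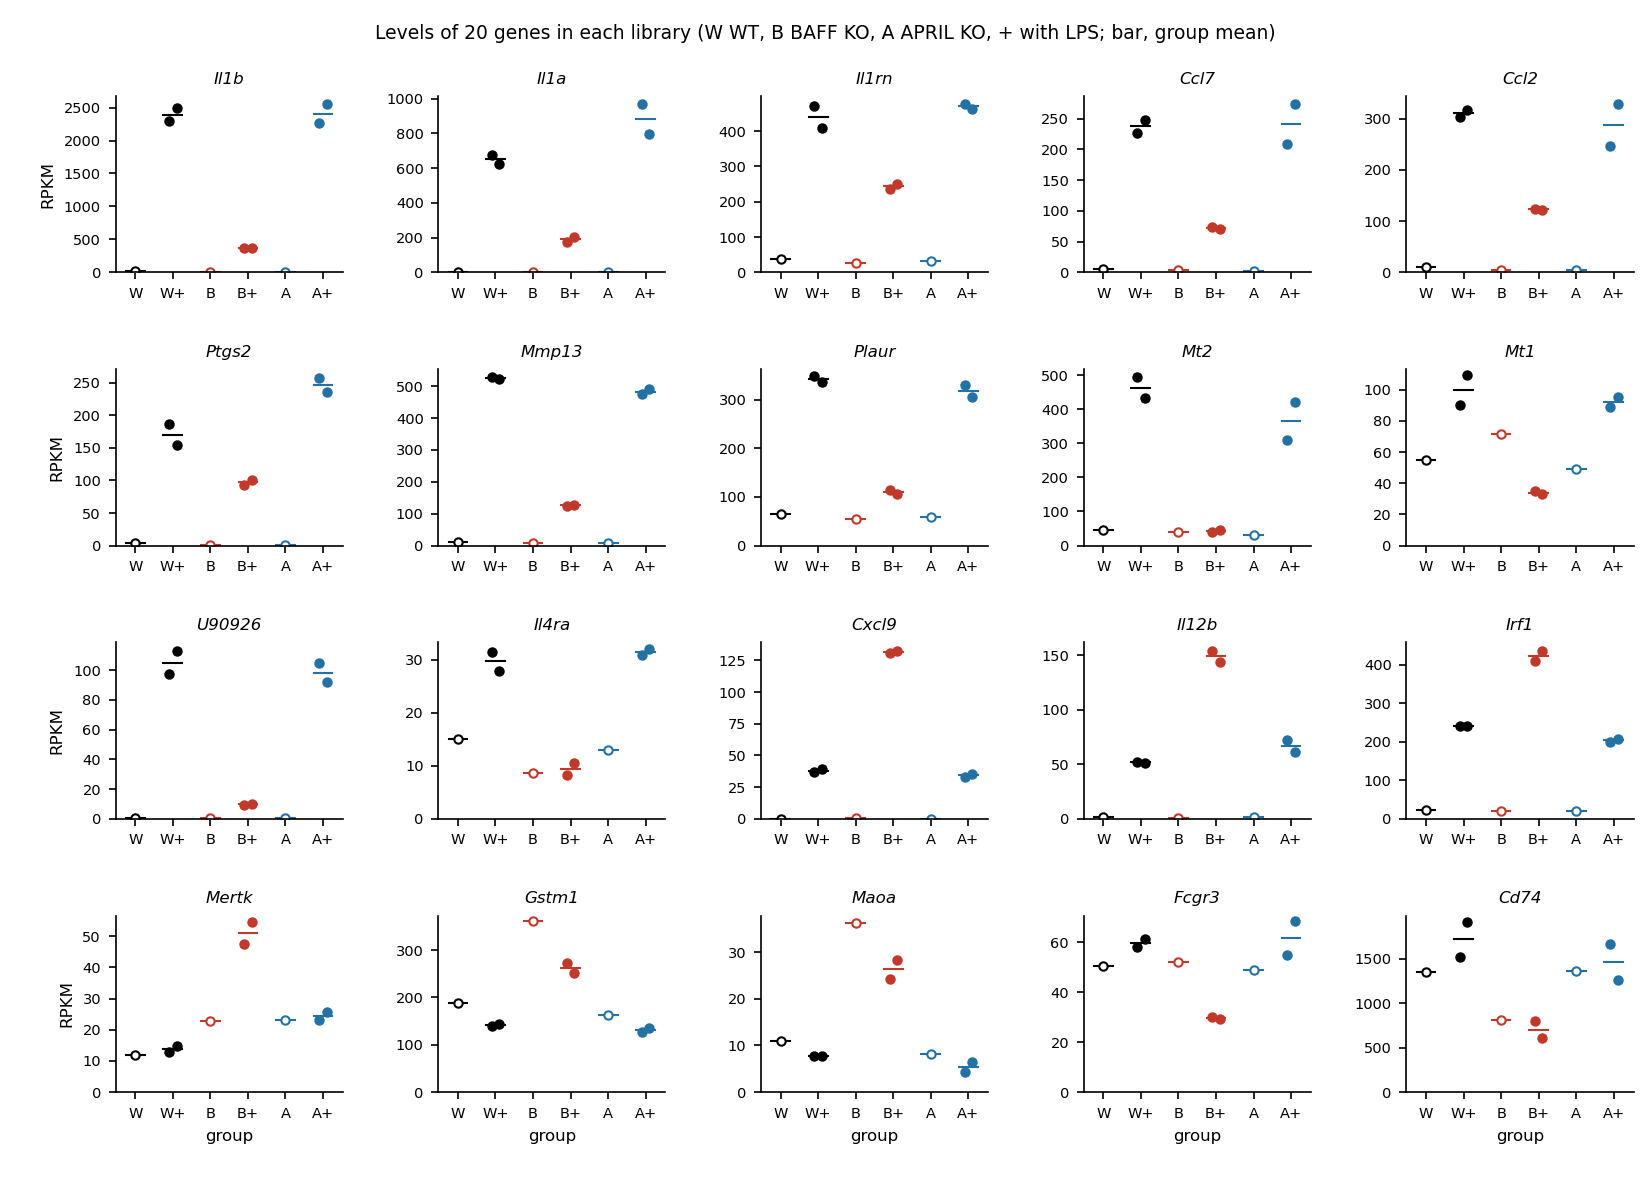
RPKM of 20 genes (y, linear, from 0) in each of the 9 libraries, by group (x): W is WT, B is BAFF KO, A is APRIL KO and + is with LPS; open points are unstimulated libraries, filled points LPS libraries, and bars group means. For Il1b, Mmp13, Mt2 and U90926 the WT and APRIL KO points with LPS lie together, far above BAFF KO, and for Cxcl9 they lie together far below it.

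Fc gamma receptors, by which macrophages take up antibody-coated targets, and their signalling chain were lower in 8 of 15 genes and higher in 1 (median -0.47). Fcgr3, an activating receptor, was at 30.1 and 29.4 RPKM in BAFF KO against 54.8 and 68.7 (-1.02, limma adjusted p = 0.0038), and Fcgr1, the high-affinity one, at 77.4 and 72.0 against 132 and 130 (-0.8, adjusted p = 0.0023). Lyn, a kinase downstream of them, was at 79.4 and 72.2 against 139 and 133 RPKM (-0.84, adjusted p = 0.0021). These 3 held. Fcgr2b, the inhibitory receptor, was lower as well (-1.13, adjusted p = 0.0055, 0.059 without library 17), as was Fcgr4 (-0.66, adjusted p = 0.017, up to 0.11 without any 1 library). The kinase Fgr (-0.83) and the exchange factor Vav3 (-0.73) were also lower (adjusted p 0.048 to 0.05, up to 0.25 without any 1 library). The higher member was the adaptor Blnk (0.36, adjusted p = 0.043, up to 0.2 without any 1 library). Fc receptor genes are alike in sequence, so reads may be shared among them.

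Genes of MHC class II, which presents antigen to helper T cells, and of costimulation were lower in 5 of 12 and higher in none (median -0.62). Cd74, the invariant chain, was at 795 and 611 RPKM in BAFF KO against 1668 and 1266, H2-Eb1 at 91.7 and 64.9 against 211 and 145, and H2-Aa at 37.7 and 33.8 against 89.0 and 65.2. Their differences were -1.06, -1.17 and -1.07 (limma adjusted p 0.015 to 0.036). H2-Ab1, the partner of H2-Aa, was at 121 and 102 against 271 and 185 (-1.0, adjusted p = 0.037), and Cd86, a costimulator of T cells, at 32.2 and 29.0 against 57.2 and 51.0 (-0.8, adjusted p = 0.008). None of the 5 calls held: those of Cd74, H2-Aa, H2-Ab1 and Cd86 were lost without 17, 18 or 20 (up to 0.12, 0.11, 0.21 and 0.067) and that of H2-Eb1 without any 1 library (up to 0.2). Cd74 was lower in BAFF KO without LPS too, at 814 against 1361 RPKM.

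Markers of B cells, which also carry MHC class II, moved with these genes. Of 5 tested 2 were lower in BAFF KO, Cd79a (3.57 and 6.57 against 10.5 and 15 RPKM, limma adjusted p = 0.042) and Ms4a1 (0.680 and 1.42 against 3.24 and 3.29, adjusted p = 0.035). The 6 markers in the table summed to 11.8 and 18 RPKM in BAFF KO, 27.0 and 30.8 in APRIL KO and 24.4 and 27.5 in WT, and without LPS to 20.2 in BAFF KO and 31.5 in APRIL KO. The call of Ms4a1 was lost without any 1 library (up to 0.19) and that of Cd79a without 17, 20 or 21 (up to 0.2). Their part in the class II difference was not tested. In bulk RNA fewer cells of a type and less RNA per cell cannot be told apart. Class I presentation had 2 of 20 higher (median 0.2), H2-Q6 (0.85, adjusted p = 0.0069, up to 0.06 without 17 or 21) and the tapasin relative Tapbpl (0.63, adjusted p = 0.017, up to 0.13 without any 1 library).

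Genes of alternative activation, the tissue-repair state driven by interleukin-4, were called in both directions, 5 higher and 5 lower of 18 (median 0.29). Higher were Mertk, a receptor for apoptotic cells (47.5 and 54.5 against 23.2 and 25.8 RPKM, 1.03, limma adjusted p = 0.004), the chitinase-like Chil3 (0.97, adjusted p = 0.012) the lectins Clec10a (0.85, adjusted p = 0.02) and Mgl2 (0.81, adjusted p = 0.044), and Cd36, described next. WT, at 13 and 14.9 RPKM of Mertk, was below both knockouts. Lower were Il4ra, Il10, Ccl17 and Ccl22, given above, and the scavenger receptor Msr1 (51.8 and 50.8 against 134 and 146 RPKM, -1.43, adjusted p = 0.00033). The calls of Mertk and Msr1 held, and those of Chil3, Clec10a and Mgl2 were lost without any 1 library (up to 0.096, 0.14 and 0.23).

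Other uptake receptors were mixed. Timd4, which binds phosphatidylserine on dying cells, was at 0.346 and 0.258 RPKM in BAFF KO against 3.81 and 4.32 (-1.96 ± 0.15, limma adjusted p = 0.00064), and its call held. In each BAFF KO library 1 sample was at 0.175 RPKM, the value listed for Timd4 without reads. Cd36, a receptor for oxidised lipoproteins, was at 0.48 (adjusted p = 0.03, up to 0.17 without any 1 library) and Olr1, another, at -1.22 (adjusted p = 0.008, up to 0.067 without 17, 18 or 20). The lists of apoptotic cell uptake and of scavenger receptors had 2 of 19 and 1 of 13 higher, and 1 and 2 lower.

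Neutrophil granule genes were higher in BAFF KO. Of 13 markers tested 7 were called higher and none lower (median 0.66), and all 13 lay above 0. Ltf, lactoferrin, was at 98.8 and 94.8 RPKM against 41.2 and 51.8 (1.05, limma adjusted p = 0.0039), Ngp at 481 and 394 against 240 and 252 (0.82, adjusted p = 0.0091), and S100a9 at 1349 and 1189 against 777 and 823 (0.66, adjusted p = 0.02). Elane (0.88), Ctsg (0.79) and Mpo (0.69), enzymes of primary granules, and Retnlg (1.71) were the others (adjusted p 0.013 to 0.046). None held: adjusted p reached 0.052 for Ltf without library 17, 0.073 for Ngp without 17, 20 or 21, 0.1 for Retnlg without 17 or 18, and 0.15, 0.1, 0.099 and 0.21 for S100a9, Elane, Ctsg and Mpo without any 1 library.

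The 14 neutrophil markers in the table summed to 2730 and 2350 RPKM in BAFF KO, 1610 and 1640 in APRIL KO and 1360 and 1720 in WT. Without LPS the sums were 5890 in BAFF KO, 2780 in APRIL KO and 3140 in WT. Monocyte markers were called higher in 2 of 8, Ly6c2 (1.03, limma adjusted p = 0.043, up to 0.22 without any 1 library; its reads may be shared with Ly6c1) and Chil3, and summed to 705 and 819 RPKM in BAFF KO against 418 and 427. Of the 14 and 8 markers listed, 0 were without reads in all 8 knockout samples with LPS; Ly6g was not analysed here and Cxcr2 was too low to be tested. Chil3 alone made up 407 and 436 RPKM of the monocyte sums in BAFF KO and 199 and 230 in APRIL KO. Gsta3 and the integrin Itgb2l (9.89 and 8.41 against 2.40 and 3.72 RPKM, 1.34, limma adjusted p = 0.0083, up to 0.079 without 17 or 18) moved the same way as the neutrophil and monocyte markers. The part of such cells in them was not tested.

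Further large differences fell outside the lists. U90926, a transcript of unknown function, was at 9.45 and 9.83 RPKM in BAFF KO and 105 and 91.8 in APRIL KO (-3.22 ± 0.12, limma adjusted p = 2.3e-05), with WT at 97.1 and 113 and 0 reads in both unstimulated knockouts. Cyth4, an exchange factor for ARF GTPases, was at 8.06 and 12.8 against 53.2 and 60.9 RPKM (-2.37, adjusted p = 0.00073), and Sema4c, a semaphorin, at 2.01 and 2.67 against 14.3 and 17.4 (-2.34, adjusted p = 0.00061). Without LPS Cyth4 was also lower in BAFF KO, but by less (66.3 against 112 RPKM, -0.75 on the log2 scale). Mid1-ps1, a pseudogene on chromosome Y, was at 10.8 and 9.87 against 36.7 and 61.8 RPKM (-2.1, adjusted p = 0.0024), and reads may be shared with its parent gene. The endothelial lipase gene Lipg (-1.9) was lower, and these 5 calls held, while that of the adaptor Scimp (-2.05) was lost without 17 or 21 (up to 0.087).

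Maoa, which oxidises serotonin and noradrenaline, was at 24.4 and 28.4 RPKM in BAFF KO against 4.21 and 6.37 (2.14 ± 0.18, 4.99-fold, limma adjusted p = 0.00089), and without LPS at 36.3 against 8.26. Mylip, a ubiquitin ligase under liver X receptor control, was at 28.5 and 29.4 against 10.6 and 9.83 RPKM (1.42, adjusted p = 0.00055). Rab38 (1.43), Asap3 (1.42), Chil1 (1.4) and Akr1b8 (1.33) were higher too (adjusted p 0.0021 to 0.005), and these 6 calls held. Arhgap22 (1.77) lost its call without library 17 (adjusted p = 0.05), and Ighg2b (1.31), an antibody heavy chain, and Eci2 (1.28) without any 1 library (up to 0.12 and 0.09).

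Of 26 glycolysis and HIF-1 genes 2 were called, both lower (median -0.14), against 5.54% called over all genes. They were the glucose transporter Slc2a1 (13 and 15.6 against 34.8 and 30.5 RPKM, -1.14, limma adjusted p = 0.0027, held) and Pfkfb3 (-0.66, adjusted p = 0.019, up to 0.13 without any 1 library). Of the cholesterol exporters and other liver X receptor targets Pltp was lower (-0.88, adjusted p = 0.0023, held) and Mylip higher, of 13. Syndecan genes, which encode docking sites of APRIL, were the only calls beside Tnfsf13 among 14 genes of the BAFF and APRIL system. Sdc4 was at 109 and 109 RPKM in BAFF KO against 241 and 244 (-1.15, adjusted p = 0.0004, held), and Sdc1 at 7.71 and 9.39 against 16.2 and 16.1 (-0.85, adjusted p = 0.0072, up to 0.055 without 17, 20 or 21).

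Adhesion genes were higher in 3 and lower in 1 of 15 (median -0.1). Vcam1, which binds the integrin that Itga4 belongs to, was at 72.0 and 74.2 RPKM in BAFF KO against 29.8 and 41.0 (1.04, limma adjusted p = 0.009, up to 0.078 without 17 or 18). Icam1 was at 652 and 648 against 469 and 471 RPKM (0.47, adjusted p = 0.012), Itga4 at 0.51 (0.05), and Itgam, a chain of complement receptor 3, at -0.49 (0.015). Those 3 lost their calls without any 1 library (up to 0.087, 0.23 and 0.11). Among 16 complement genes C3, the central component, was at 810 and 758 against 559 and 497 RPKM (0.57, adjusted p = 0.012, up to 0.094 without 17, 18 or 21) and Cr1l at 0.57 (0.023, up to 0.13 without 17, 20 or 21).

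Calls in several further lists are given by gene. Saa3, an acute-phase protein, was at 260 and 278 RPKM in BAFF KO against 547.5 and 638 (-1.13, limma adjusted p = 0.0065, up to 0.069 without 17, 18 or 21). The NADPH oxidase subunit Ncf1 was at 188 and 194 against 134 and 131 RPKM (0.53, adjusted p = 0.0097, up to 0.079 without any 1 library). Among transcription regulators Cebpd (-1.71, adjusted p = 0.034) and Id1 (-1.14, 0.01) were lower and Tfec (0.59, 0.04) higher, and Tgfbi, a TGF-beta target, was lower (-0.87, 0.0088). They lost their calls without 17, 20 or 21 (Cebpd, up to 0.16), 17, 18 or 21 (Id1, up to 0.079), any 1 library (Tfec, up to 0.18) and 17 or 21 (Tgfbi, up to 0.079).

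The inhibitory receptors Cd33 (-1.09, limma adjusted p = 0.014) and Pirb (-0.46, 0.017) were lower. They were the only calls among 22 CD300, TREM and paired myeloid receptors, of which 15 lay above 0 (median 0.14). The survival factor Mcl1 (-0.38, limma adjusted p = 0.048) was lower too, the only call among 10 genes of the BCL-2 family. In the ATF4 list of 26 the enzymes Chac1 (-0.98) and Psat1 (-0.72) and the factor Nupr1 (-0.43) were lower and Ppp1r15a, a phosphatase subunit that ends the stress response, higher (0.65), with adjusted p of 0.011 to 0.033. Each of these 7 calls was lost without any 1 library, with adjusted p up to 0.21.

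Housekeeping lists gave few or no calls. Of 73 ribosomal protein genes, 58 respiratory chain genes and 22 cholesterol synthesis genes 0 were called, with medians of -0.05, 0.07 and 0.07. The smallest adjusted p among the first 2 lists was 0.094 for Rps14 (-0.32) and 0.055 for Ndufs7 (0.4). At an unadjusted p below 0.05 the 3 lists held 2, 14 and 3 genes, and voom called 0, 2 and 0, against 1929 and 837 of all 9934 genes. Of 33 proteasome subunits Psma6 was lower (-0.78, limma adjusted p = 0.004, held) and Psmd8 higher (0.34, adjusted p = 0.048, up to 0.24 without any 1 library). The 24 unfolded protein response genes had 1 call, Xbp1 (-0.58, adjusted p = 0.033, up to 0.19 without any 1 library), and 33 replication and mitosis genes had 2 higher, Wee1 (1.24, adjusted p = 0.0088, up to 0.073 without 17, 18 or 20) and Pcna (0.4, adjusted p = 0.037, up to 0.2 without any 1 library).

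Finally the LPS response of each knockout, LPS minus its own unstimulated library, was compared between them. The difference was called for 19 of 9934 genes (0.191%), 12 smaller in BAFF KO (0.121%) and 7 larger (0.0705%). The balance varied with the method: limma voom on reads called 95 smaller and 226 larger, the samples taken as separate 650 and 1160, and median ratio scaling 12 and 3. Each unstimulated group is 1 library, assumed to vary like the other groups. Il1b rose from 7.79 to a mean of 371 RPKM in BAFF KO and from 8.84 to 2409 in APRIL KO, so its response was 5.4 against 7.93 on the log2 scale. Mt2 changed by 0.06 in BAFF KO and 3.54 in APRIL KO, Mmp13 by 3.62 and 5.59, and Plaur by 1.0 and 2.43. Larger in BAFF KO were the responses of Cxcl9 (6.7 against 4.96), Il12b (6.43 against 4.84) and Irf1 (4.3 against 3.28). The difference of Cxcl9, which was at 0.273 and 0.131 RPKM without LPS, was 1.74, but 1.25 with a pseudocount of 0.1 (limma adjusted p = 0.079) and -0.35 by voom (adjusted p = 0.93). Voom also gave no call for Il12b (2.57, adjusted p = 0.14). Mylip rose by 0.4 in BAFF KO and went down by -1.57 in APRIL KO. Without library 17, 18, 20 or 21 the count was 3, 4, 10 and 9, and Il1b, U90926 and Mmp13 were called in each case, though U90926, with 0 reads in both unstimulated knockouts, was not called by voom (-3.4, adjusted p = 0.4).

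**Figure D5:**
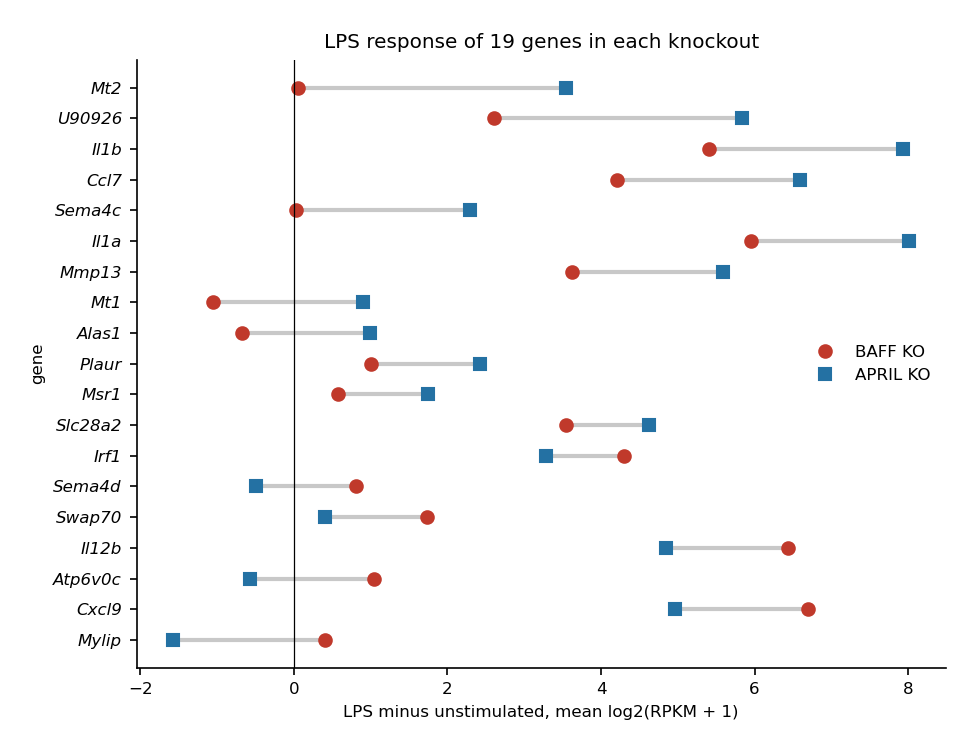
LPS response (x, LPS minus unstimulated, mean log2(RPKM + 1)) of the 19 genes (y) whose response differed between BAFF KO (circles) and APRIL KO (squares), joined by a line. For Mt2 and Sema4c the BAFF KO circle lies at about 0 while APRIL KO responded, and for Cxcl9 (on this scale, not by voom), Il12b and Irf1 the circle lies to the right.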

How the data were processed

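RNA of cultured bone marrow macrophages was sequenced in 18 samples as single reads of 85 bases, per the labels' protocols, which state about 20 M reads a sample and name both a directional and a general RNA kit, so strandedness is unclear. STAR and the mm10 build are named in the submitters' processing notes. For the counter, annotation and gene filter nothing is given in the sources used here. RPKM values were deposited for 11164 genes, and 11084 IDs matched a symbol. The values turned out to be whole reads plus 1, per gene length and depth: 99.97% came out whole within 0.01, with 1649338 to 4078562 reads per sample and 5121833 to 6020780 per library, so a gene without reads is listed at a small value above 0. Counting error is therefore small for abundant genes and large below a few RPKM.

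The 2 samples of each library number were averaged, giving 9 libraries in 6 groups. Within a library 2 samples differed by a mean chi-square per gene of 1.64 to 2.13, far less than libraries of 1 group did. The 9934 genes that averaged 1 RPKM or more in any group were tested by limma 3.58.1 (R 4.3.3; moderated with trend, 3 residual degrees of freedom, two-sided) on log2(RPKM + 1), with Benjamini-Hochberg adjustment over all of them. Because the unit is RPKM, no count model was used as the main test, and limma voom on the recovered reads was an alternative. The others were the pseudocount, filter, scaling, choice of samples, a replicate block, a 2-fold threshold and leaving out each library. Tables and plots used Python 3.11.15, pandas 2.3.3, numpy 2.4.6 and matplotlib 3.10.9.

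The comparison and gene lists were chosen with earlier results of these data known, so counts over a list are descriptions. Named were Tnfsf13, the 15 largest called differences in each direction among genes with a symbol whose samples did not overlap, and up to 3 called members of each list in each direction, or the smallest p where none was called. Named after their values were seen were Gm14023, Il6, Tnf, Nos2, Cxcl10, Il10, Csf3, Socs3, Dusp1, Acod1, Ccl4, Ccl22, Fcgr1, Fcgr4, Hmox1, Cat, Gclm, Elane, Mpo, Ctsg, Ngp, Ltf, S100a9, Cd79a, Ms4a1, Ly6c2, Adgre1, Alas1, Slc28a2, Sema4d, Swap70, Atp6v0c, Tnip1, Tnip3, Zc3h12a, Irak3, Sbno2, Cd86, H2-Ab1, Csf3r, Ccl6, Ccl9, Pdgfb, Tnfsf9, Fgr, Vav3, Atp6v1c1, Atp6v1h, Gla, Ifi202b, Ifi208, Slfn4, Trim30b and Calhm6. Some genes that the rule covers are not reported here. The marker lists of dendritic, T or NK, mast, erythroid, megakaryocyte, endothelial and sex-linked genes had 0 calls by limma, with 4, 0, 2, 2, 0, 0 and 0 members at an unadjusted p below 0.05 and 1, 0, 0, 0, 0, 0 and 0 called by voom. Of 5 osteoclast markers Atp6v0d2 was higher, and of 8 macrophage markers Mertk was higher and Fcgr1 and Itgam lower.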

Additional observations from a re-analysis of the deposited data

Results flagged for a closer look

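The LPS response differed between the knockouts at 19 genes, by a limma test of the difference itself (response of BAFF KO minus that of APRIL KO, log2, adjusted p over 9934 genes). Smaller responses in BAFF KO were those of Mt2 (-3.48, adjusted p = 0.0031), U90926 (-3.22), Il1b (-2.53), Ccl7 (-2.38), Sema4c (-2.26), Il1a (-2.06), Mmp13 (-1.97), Mt1 (-1.95), Alas1 (-1.67), Plaur (-1.43), Msr1 (-1.18) and Slc28a2 (-1.08), with adjusted p of 0.0019 to 0.044. Mt1 and Alas1, the first enzyme of heme synthesis, fell with LPS in BAFF KO (by -1.05 and -0.68) and rose in APRIL KO (by 0.9 and 0.99). Slc28a2, a nucleoside transporter, was at 187 and 203.5 RPKM in BAFF KO with LPS against 484 and 495.

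Larger responses in BAFF KO were those of Mylip (1.97), Cxcl9 (1.74), Atp6v0c (1.62), Il12b (1.58), Swap70 (1.33), Sema4d (1.3) and Irf1 (1.01), with limma adjusted p of 0.0082 to 0.044. Atp6v0c, a subunit of the lysosomal proton pump, was not called under LPS (83.9 and 83.2 against 73.9 and 78.9 RPKM). Its unstimulated libraries were at 39.9 in BAFF KO and 114 in APRIL KO. Sema4d and Swap70 were likewise lower in unstimulated BAFF KO (51.1 against 88.9 and 30.4 against 44.7 RPKM) and higher with LPS (86.7 and 93.8 against 67.5 and 58.8, and 110.2 and 97.8 against 62.3 and 57.2).

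Each of these values rests on 1 unstimulated library a knockout. Without library 17 the calls of Il1b, U90926 and Mmp13 were left, and without 18 these and Mt2. Without 20 also Mt1, Il1a, Atp6v0c, Mylip and Ccl7 were called, and without 21 these 9 except Mt1. Adjusted p of the others rose to at most 0.17 in these omissions. By limma voom on recovered reads 5 of the 19 were not called: Cxcl9, whose difference turned to -0.35 (adjusted p = 0.93), U90926 (-3.4, 0.4), Il1a (-1.77, 0.21), Ccl7 (-2.81, 0.19) and Il12b (2.57, 0.14). With a pseudocount of 0.1 Cxcl9 was at 1.25 (adjusted p = 0.079). With the lower index sample alone none of the 19 was called, with adjusted p of 0.054 to 0.22.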

How the results depend on the processing

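Against 550 calls under LPS, the 18 samples taken as separate gave 1824, the lower index sample of each library alone 164, limma voom 837, and a threshold of at least 2-fold 130. Leaving out 1 of the 4 libraries gave 99 to 157. Within 1.5 times lay quantile normalization (583), a pseudocount of 0.1 (541), median ratio scaling (535), the higher index sample alone (438), no filter (399), the 4 knockout LPS libraries (466) and the 6 LPS libraries (562). Of 165 calls followed gene by gene 162 stayed called with 6 LPS libraries and 163 by voom, 76 with the lower index sample, and 53 to 74 without 1 library. None changed sign under any of these settings. Cxcl10, not called, ranged from -0.02 without library 17 to 0.07 without library 18.

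The difference in LPS response was called at 19 genes, against 12 with no filter, 74 with quantile normalization (31 larger in BAFF KO, 43 smaller), 1810 with separate samples, 321 by voom and 0 by limma with the lower index sample (1345 at an unadjusted p below 0.05). Leaving out 1 library gave 3 to 10. The share larger in BAFF KO was 36.8%, 20.0% with median ratio scaling, 64.1% with separate samples and 70.4% by voom. The median of this difference over all genes moved from 0.1 to 0.021 with median ratio scaling.

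The replicate numbers did not pair the libraries: deviations correlated at 0.12 between BAFF KO and APRIL KO, -0.18 between BAFF KO and WT and -0.102 between APRIL KO and WT. With them as a replicate block 411 genes were called under LPS and 12 for the response. With 2 libraries a group and 3 residual degrees of freedom, small differences could go undetected, and the origin of the libraries cannot be told from the labels. Some small differences were called, such as those of Ccl6 (-0.34) and Psmd8 (0.34), but these calls were lost without any 1 library.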

Other observations

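Within 10 megabases on each side of Tnfsf13, 13 of 210 tested genes were called (6.19%), 3 higher and 10 lower in BAFF KO, against 5.54% of all genes. Clec10a (higher, from base 70156197) and Scimp (lower, from base 70790932), named above, lie in this window. A part of the altered locus in their differences was not tested. Osteoclast markers summed to 107 and 139 RPKM in BAFF KO with LPS and 72.9 and 86.8 in APRIL KO. Erythroid markers summed to 583 and 713 against 1190 and 745 RPKM, the highest being library 20.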
